A study of Mus musculus with 6 samples.

Results

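The 39 genes described here encode the proteins that carry glucose and lactate across the membrane, the enzymes of glycolysis and of its counter step, the proteins that pass pyruvate into the mitochondrion and gate its oxidation, and the enzymes of the pentose phosphate pathway. They were chosen by name, by their place in these pathways, from 29347 genes with any read. All 39 passed the filter on low counts and were among the 16656 genes tested. RNA was compared between 3 libraries of Rpl22+/+ and 3 libraries of Rpl22-/- CD11b+Gr1+ splenocytes, sorted by flow cytometry from mice that all carried the Mll-AF9 knock-in allele, a fusion oncogene that causes acute myeloid leukemia. Rpl22 is an RNA-binding component of the large subunit of the ribosome, and the Rpl22-/- mice carried a germline ablation of the gene. The study's methods describe its Rpl22 mice as young adults on a C57BL/6 background. They describe the sorted splenocytes as explants from mice that bore tumors. Knock-in mice were killed when they showed symptoms or at set times. The study's text names 1 mouse per genotype, and nothing in the labels ties the 3 libraries to different animals, so the errors and p-values given measure the spread between libraries, which may be technical.

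Glycolysis splits glucose into pyruvate, with ATP and NADH gained on the way, and pyruvate is then either reduced to lactate and exported or taken into mitochondria and oxidized. Most steps are run by families of isoenzymes that catalyze the same reaction but differ in regulation and in the cells that use them. Granulocytes hold few active mitochondria and rest largely on glycolysis, and they draw on the pentose phosphate pathway for the NADPH that feeds their oxidative burst.

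The labels were checked first. Rpl22, of which reads remained in Rpl22-/-, fell by 1.27 on the log2 scale in Rpl22-/- (SE 0.25, edgeR adjusted p = 0.0106), with 148, 235 and 152 CPM in Rpl22+/+ replicates 1 to 3 and 58.3, 89.9 and 73.5 in Rpl22-/- replicates 1 to 3. CPM are read counts relative to the size of the library, scaled by the TMM method, and libraries are listed in this order throughout. The libraries held between 35828500 and 102866127 estimated reads. Rpl22+/+ replicate 2 stood apart, and within Rpl22+/+ it was the highest library for 35 of the 39 genes, against 54.7% of all genes tested. Of 6 markers of the sorted cells, 1 was higher (Mpo, a granule enzyme of immature granulocytes) and 2 were lower, and their summed level was 5622 to 6269 CPM in Rpl22+/+ and 12805 to 15158 in Rpl22-/-. Mpo was at 1333 ± 453 against 10594 ± 989 CPM. The lower markers were Itgam and Ly6g: Itgam, which encodes CD11b, was read at 1928 ± 137 CPM in Rpl22+/+ and 948 ± 117 in Rpl22-/- (mean ± SD, n = 3 each), and Ly6g, which encodes one of the antigens of the Gr1 antibody, at 159 ± 16.2 and 14.2 ± 2.64. The summed level of 9 markers of mature neutrophils was 43236 to 58291 CPM in Rpl22+/+ and 11706 to 15973 in Rpl22-/-, with 8 of the 9 lower, whereas 4 of 4 markers of the earlier promyelocyte stage were higher, with a sum of 2305 to 3970 against 22041 to 26845 CPM. Erythroid markers were higher for 6 of 8 genes (57.9 to 89.8 against 382 to 722 CPM in sum) and T cell markers lower for 6 of 6 (41.0 to 55.5 against 15.6 to 17.97 CPM), while 1 of 6 B cell markers was lower (579 to 731 against 365 to 559 CPM). Of 8 monocyte and macrophage markers 2 were higher and 3 lower (979 to 1223 against 442 to 603 CPM). Of 3 platelet markers tested 0 passed (3.17 to 5.13 against 3.97 to 4.62 CPM), and of 3 stromal markers tested 1 was lower (5.54 to 6.37 against 2.70 to 4.51 CPM). For markers, higher and lower mean an edgeR adjusted p under 0.05, reached by 13.7% (higher) and 13.8% (lower) of all genes tested. The B cell count lies near the latter share. Mpo is in both the list of the sorted cells and that of the promyelocyte stage. The part of this shift in markers in the results that follow was not tested. In bulk RNA, fewer cells of a type and less RNA per cell cannot be told apart.

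Of the 39 genes, 13 passed the genotype test (edgeR quasi-likelihood F test, Benjamini-Hochberg adjusted p under 0.05), 5 higher and 8 lower in Rpl22-/-. Over all genes tested the share was 27.6%, with 13.7% higher and 13.8% lower, so the count of these genes that passed lies near the background. With the replicate number as a block, 8 genes passed as higher and 10 as lower, in a fit where 33.8% of all genes passed, with Pfkm, Mpc1 and Tpi1 added to the former and Aldoc and Ldha to the latter. With a fold change of over 1 on the log2 scale as well, 2 genes were higher (Fbp1 and Ldhb) and 4 lower (Hk2, Slc2a3, Pfkfb4 and Slc16a3), beside 17.5% of all genes, 8.93% higher and 8.54% lower. The 3 libraries of one genotype did not overlap those of the other for 25 of the 39 genes, against 46.1% of all genes. The median log2 fold change of the 39 genes was -0.17, that of all genes tested 0.07, and the median size of the change, without its sign, was 0.53 against 0.48. The summed abundance of the 39 genes was 12189 ± 1296 TPM in Rpl22+/+ and 10495 ± 248.6 in Rpl22-/- (mean ± SD, n = 3 each), where TPM is an abundance scaled for transcript length and summing to the same total in every library. The adjusted p stayed under 0.05 in each of the 19 alternative settings tried for 6 genes, Slc2a3, Slc16a3, Hk2, Pfkfb4, Fbp1 and Mpc2. Where a call is said to be kept or lost, only this threshold is meant. The plot of fold changes in pathway order shows how unevenly the change fell on members of the same family.

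**Figure D1:**
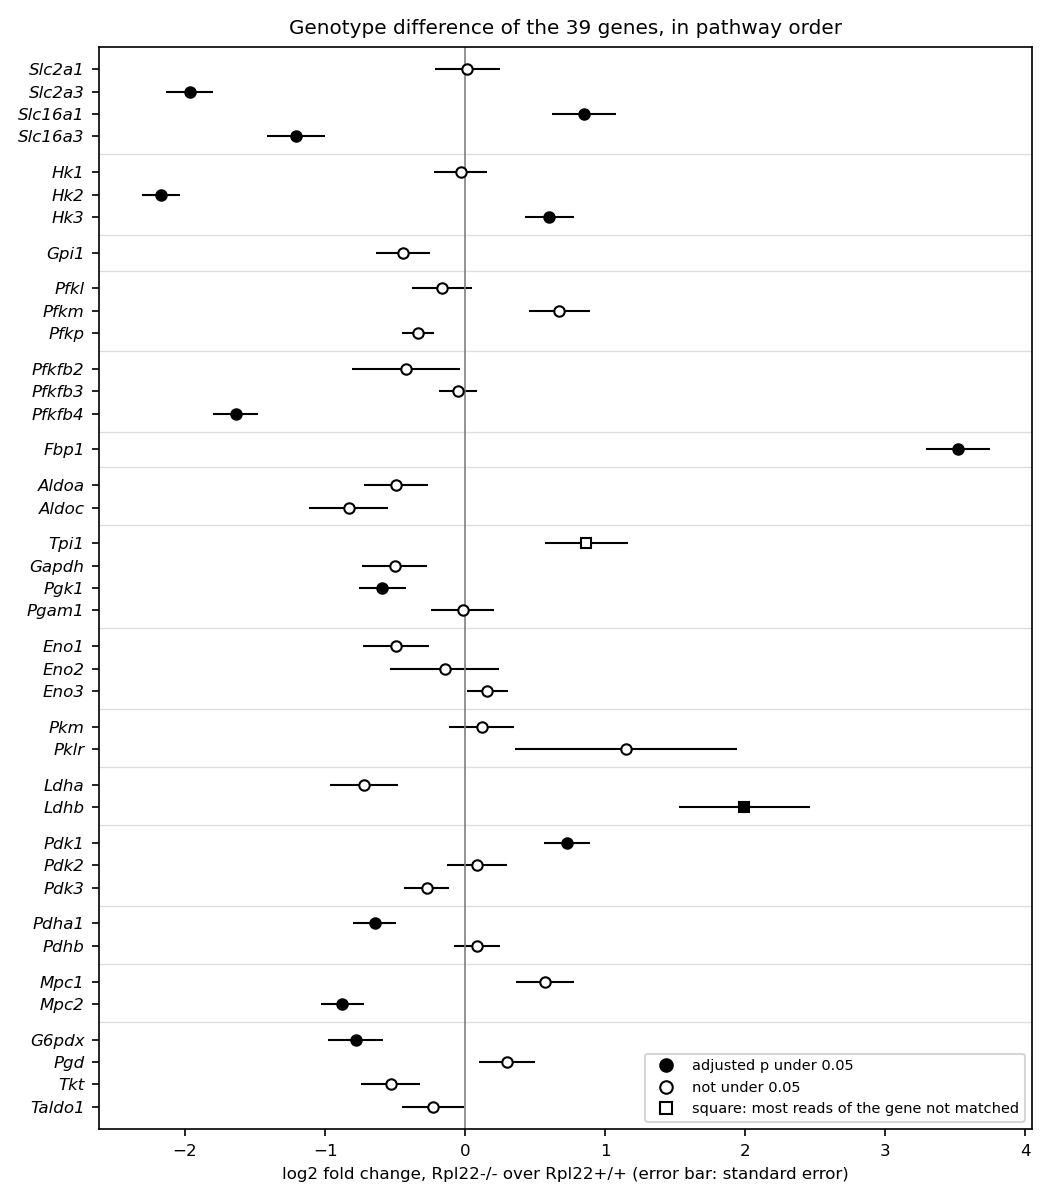
Log2 fold change of each of the 39 genes, Rpl22-/- over Rpl22+/+ (x axis), in pathway order from transporters (top) to the pentose phosphate pathway (bottom). Error bars are standard errors from the edgeR fit, filled symbols passed at an adjusted p under 0.05, and squares mark Tpi1 and Ldhb, most of whose reads were not matched. Fbp1 lies at 3.52 and Hk2 at -2.17, while most other enzymes lie within 1 unit of 0.

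The largest falls were in Hk2, Slc2a3, Pfkfb4 and Slc16a3, and the largest rise was in Fbp1. Hexokinase 2 traps glucose in the cell by phosphorylating it, Slc2a3 is a high-affinity glucose transporter, Pfkfb4 makes and removes fructose 2,6-bisphosphate, the activator of phosphofructokinase, and Slc16a3 exports lactate. Fbp1 runs the opposite way: it removes a phosphate from fructose 1,6-bisphosphate, the step of gluconeogenesis that undoes phosphofructokinase. The stretch before the start of 4 of these genes is shown here, since 3 of them fell together and Fbp1 rose; Slc2a3 has no entry in the promoter table. Each is the 250 bases before the annotated start, 5′ to 3′ on the strand of the gene, from RefSeq on build GRCm38.p6, with ACGTG and GCGTG, the core letters to which hypoxia-inducible factors bind, in capitals on either strand (as CACGT or CACGC where they lie on the other strand).
Hk2, chr6:82774455-82774704, minus strand: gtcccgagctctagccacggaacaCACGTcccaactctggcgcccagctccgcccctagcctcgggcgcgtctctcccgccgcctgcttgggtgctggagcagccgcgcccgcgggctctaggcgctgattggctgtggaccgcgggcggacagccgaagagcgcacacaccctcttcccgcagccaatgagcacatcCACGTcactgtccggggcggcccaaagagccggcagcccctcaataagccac
Pfkfb4, chr9:108991652-108991901, plus strand: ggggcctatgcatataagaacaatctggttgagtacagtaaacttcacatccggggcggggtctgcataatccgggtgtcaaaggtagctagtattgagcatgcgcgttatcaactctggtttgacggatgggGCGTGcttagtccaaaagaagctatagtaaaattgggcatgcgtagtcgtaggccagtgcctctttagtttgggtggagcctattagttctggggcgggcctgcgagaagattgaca
Slc16a3, chr11:120948817-120949066, plus strand: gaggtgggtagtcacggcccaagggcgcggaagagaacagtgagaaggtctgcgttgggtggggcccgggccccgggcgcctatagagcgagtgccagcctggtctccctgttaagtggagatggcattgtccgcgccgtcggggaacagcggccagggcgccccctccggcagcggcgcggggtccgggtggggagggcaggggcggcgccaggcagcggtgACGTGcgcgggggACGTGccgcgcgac
Fbp1, chr13:62888283-62888532, minus strand: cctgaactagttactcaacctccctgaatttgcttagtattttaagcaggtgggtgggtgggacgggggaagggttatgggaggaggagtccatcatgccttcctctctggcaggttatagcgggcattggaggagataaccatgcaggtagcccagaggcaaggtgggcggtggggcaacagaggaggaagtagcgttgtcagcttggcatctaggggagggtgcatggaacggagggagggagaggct
The Hk2 and Slc16a3 stretches hold 2 such matches each, that of Pfkfb4 1 and that of Fbp1 0. Over all 39 genes, 38 had a promoter entry, and 33 of them (86.8%) held at least 1 match before at least 1 start, as did 41.5% of 27025 genes in the table. Among the genes that passed, this held for 7 of 7 lower and 4 of 5 higher genes. CACGTG, the E-box, which overlaps ACGTG, was found for 6 of the 38 genes (15.8%), against 6.86% of all genes. These counts describe letters only, and some genes have several starts.

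RNA of glucose and lactate transporters changed unevenly within each family. Slc2a3 (chr6:122704768-122778599, minus strand, GRCm39, as are all gene positions unless another build is named) was read at 465, 569 and 473 CPM in Rpl22+/+ and at 148, 124 and 114 CPM in Rpl22-/-. The groups lie far apart, and the gene was 3.90-fold lower in Rpl22-/- (log2 fold change -1.96, SE 0.17, adjusted p = 0.000455). Slc2a1, the basal glucose transporter, was at 32.5, 53.0 and 36.6 CPM in Rpl22+/+ and 33.0, 42.4 and 48.0 in Rpl22-/-. Its groups overlapped, and its change of 0.02 on the log2 scale (SE 0.23, adjusted p = 0.972) was one whose sign changed with the scaling. Per transcript, Slc2a3 made up 90.8%, 87.9% and 89.6% of the TPM of both transporters in Rpl22+/+ and 76.1%, 66.4% and 62.1% in Rpl22-/-. The transporter pair went from 193 ± 5.82 to 68.3 ± 8.18 TPM in sum, and Slc2a3 stayed the larger member in all 6 libraries, also over protein-coding transcripts alone (93.4 ± 1.03% against 81.6 ± 4.55%).

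The monocarboxylate transporters moved in opposite directions. Slc16a3 (chr11:120839306-120851694, plus strand), the lactate exporter of glycolytic cells, was at 152, 235 and 162 CPM in Rpl22+/+ and 79.6, 88.5 and 69.9 in Rpl22-/-. It was 2.31-fold lower (log2 fold change -1.21, SE 0.21, adjusted p = 0.00645). Slc16a1 (chr3:104545984-104565778, plus strand), which carries lactate and pyruvate either way, was at 16.6, 26.2 and 17.8 CPM in Rpl22+/+ and 29.8, 36.3 and 43.1 in Rpl22-/-. It was 1.80-fold higher (log2 fold change 0.85, SE 0.23, adjusted p = 0.0339), a call that was lost with a correction for GC content (log2 fold change 0.62, adjusted p = 0.326) and without Rpl22+/+ replicate 1 or 3 or Rpl22-/- replicate 2 or 3. The share of Slc16a1 in the TPM of both went from 4.68 ± 0.14% to 16.98 ± 3.60%, with no overlap between the groups, while their sum went from 118 ± 10.3 to 64.5 ± 2.74 TPM.

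**Figure D2:**
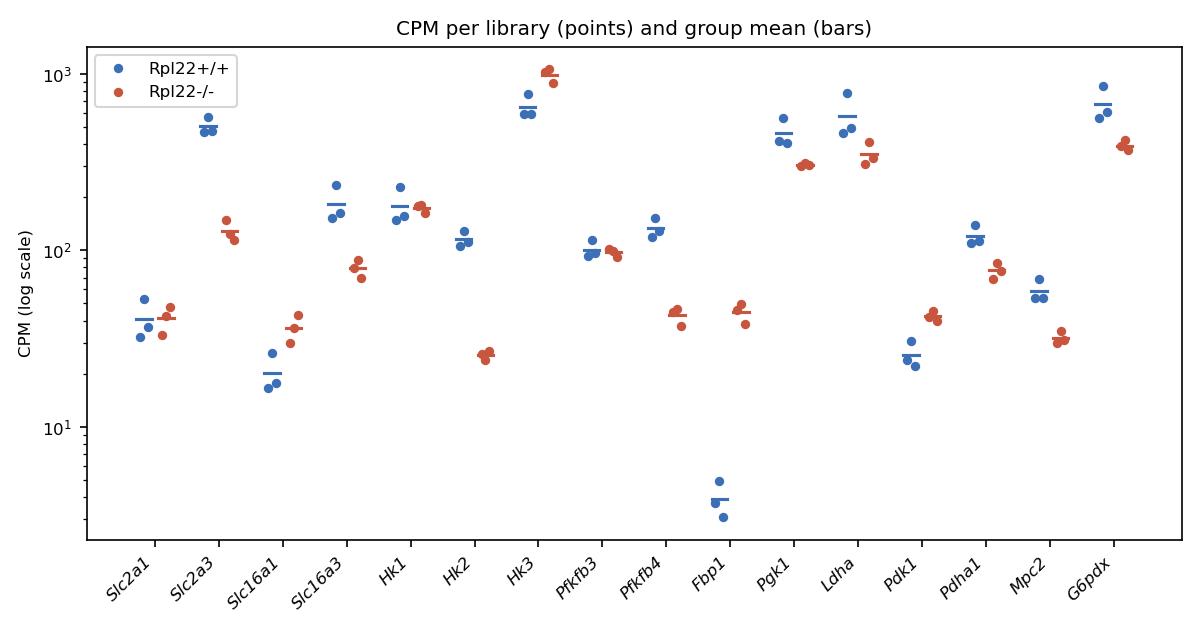
CPM of 16 genes in each library (points; log axis), with Rpl22+/+ in blue and Rpl22-/- in red and a bar at each group mean. The red points of Slc2a3, Slc16a3, Hk2 and Pfkfb4 lie below all blue points of the same gene, those of Fbp1 lie above, and those of Slc2a1, Hk1 and Pfkfb3 overlap them.

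The hexokinases, which open glycolysis, split in the same manner. Hk2 (chr6:82702006-82751435, minus strand) was read at 105, 129 and 112 CPM in Rpl22+/+ and at 25.7, 24.0 and 27.0 CPM in Rpl22-/-. It was 4.51-fold lower (log2 fold change -2.17, SE 0.14, adjusted p = 0.000152), with narrow spread in both groups. Hk3 (chr13:55153798-55169198, minus strand), the hexokinase typical of myeloid cells, was at 593, 771 and 588 CPM in Rpl22+/+ and 1024, 1057 and 882 in Rpl22-/-. It was 1.52-fold higher (log2 fold change 0.60, SE 0.17, adjusted p = 0.0413), close to the threshold, and the call was lost without any one of the libraries other than Rpl22+/+ replicate 2. Hk1, the form of most tissues, was at 149, 227 and 156 CPM against 178, 179.7 and 162 (log2 fold change -0.03, SE 0.19, adjusted p = 0.928). Within the family Hk3 was the major form in every library, at 77.1 ± 1.38% of hexokinase TPM in Rpl22+/+ and 87.4 ± 0.48% in Rpl22-/-. The share of Hk2 went from 7.03 ± 0.34% to 1.22 ± 0.18%, and that of Hk1 from 15.9 ± 1.54% to 11.3 ± 0.33%, none with overlapping groups. Summed hexokinase abundance was 364 ± 6.15 TPM in Rpl22+/+ and 532 ± 59.98 TPM in Rpl22-/-, so the family sum moved against Hk2. Over protein-coding transcripts alone the sums were 298 ± 14.1 and 382 ± 33.6 TPM, and the coding share of Hk3 TPM was 76.7 ± 5.04% in Rpl22+/+ and 67.9 ± 3.41% in Rpl22-/-. The share of Hk3 among coding hexokinase TPM was 72.1 ± 1.01% against 82.6 ± 0.99%. For each of these shares the two-sided exact permutation test gave p = 0.1, the smallest that 3 against 3 libraries allow.

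At the committed step, the phosphofructokinases themselves did not pass. Pfkl, Pfkm and Pfkp had log2 fold changes of -0.17, 0.67 and -0.33 with adjusted p of 0.625, 0.0610 and 0.0746, though Pfkm passed with the replicate block (adjusted p = 0.0233). Pfkm, the minor form, went from 3.84 ± 0.41% to 7.001 ± 0.57% of the family's TPM with no overlap, while the groups overlapped for the shares of Pfkl and Pfkp. Over protein-coding transcripts alone Pfkp no longer overlapped, at 57.2%, 53.5% and 59.3% against 48.3%, 49.4% and 50.96%. Among the PFKFB enzymes, which set the level of fructose 2,6-bisphosphate, Pfkfb4 (chr9:108820846-108861296, plus strand) was at 119, 153 and 129 CPM in Rpl22+/+ and 44.9, 46.7 and 37.1 in Rpl22-/-. It was 3.11-fold lower (log2 fold change -1.64, SE 0.16, adjusted p = 0.000763), although chromosome 9 genes as a whole were shifted upward, with a median of 0.34 over 659 genes. Pfkfb3, the form with the strongest kinase activity, was at 92.7, 114 and 96.3 CPM against 102, 98.6 and 92.0 (log2 fold change -0.05, SE 0.14, adjusted p = 0.821), and Pfkfb2 was at 16.1, 6.47 and 13.2 CPM against 11.6, 6.02 and 9.14 (log2 fold change -0.42, SE 0.38, adjusted p = 0.476). The order of the leading pair was exchanged: Pfkfb4 made up 60.5%, 64.7% and 62.3% of the family's TPM in Rpl22+/+ and 39.5%, 41.2% and 34.6% in Rpl22-/-, and Pfkfb3 31.2%, 32.5% and 31.1% against 50.8%, 52.9% and 55.9%. Over protein-coding transcripts alone the exchange was also seen, with Pfkfb4 at 52.6 ± 2.60% against 24.7 ± 2.01% and Pfkfb3 at 41.9 ± 0.91% against 69.2 ± 0.68%. The family's sum went from 97.0 ± 8.45 to 57.7 ± 7.26 TPM.

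**Figure D3:**
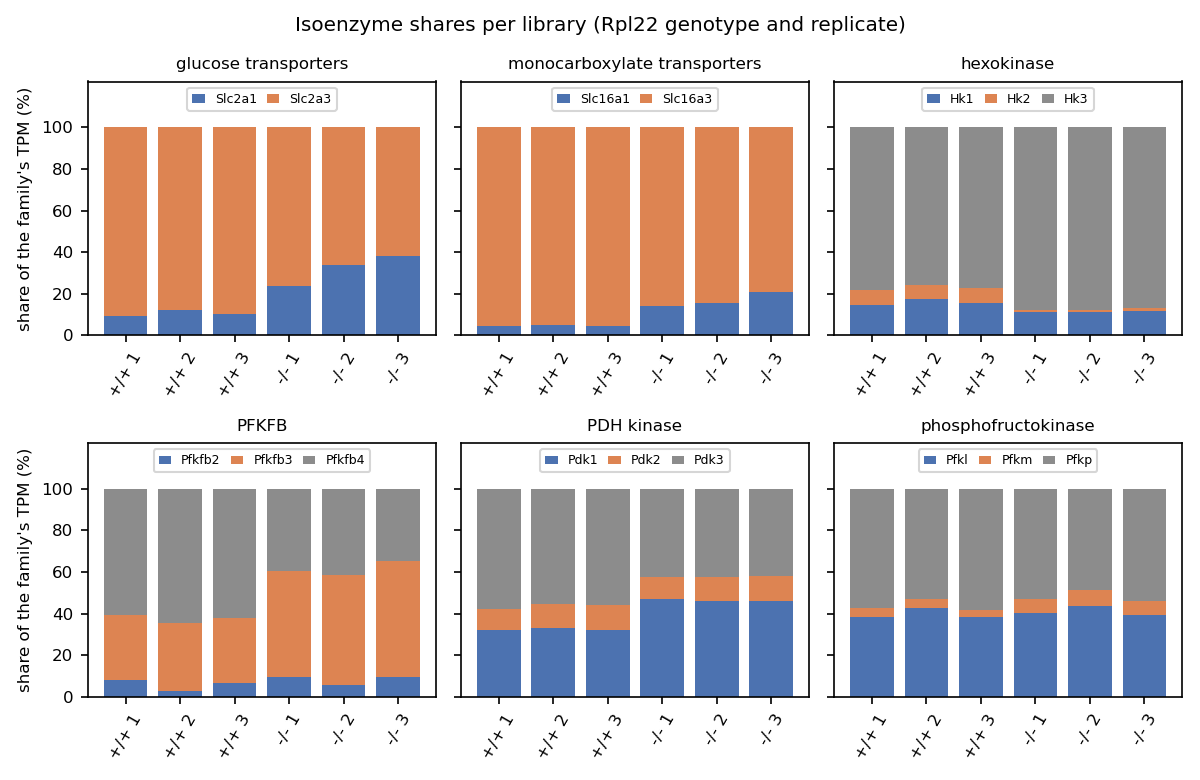
Share of each isoenzyme in the TPM of its family (y axis, percent) in each library, for 6 families; libraries are named by Rpl22 genotype and replicate. Pfkfb4 is the largest segment of its family in the 3 Rpl22+/+ libraries and Pfkfb3 in the 3 Rpl22-/- libraries, and the Pdk1 segment, mostly non-coding transcripts, is wider in Rpl22-/-.

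Fbp1 (chr13:63012567-63036096, minus strand) had the largest change of the 39 genes. It was at 3.72, 4.92 and 3.07 CPM in Rpl22+/+ and at 45.7, 49.9 and 38.4 CPM in Rpl22-/-, 11.4-fold higher (log2 fold change 3.52, SE 0.23, adjusted p = 0.00016). Its level in Rpl22-/-, 43.7 ± 5.202 TPM, was near that of Pfkp, at 40.8 ± 4.43 TPM, and of Pfkl, at 32.2 ± 0.89 TPM, whereas in Rpl22+/+ Fbp1 was at 3.53 ± 0.44 TPM. Fbp2, its muscle form, had 0 reads in the 6 libraries and was not tested.

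The later steps of glycolysis changed less. Pgk1 (chrX:105230706-105247305, plus strand), the first enzyme of the pathway to yield ATP, was at 415, 560 and 405 CPM in Rpl22+/+ and 301, 312 and 304 in Rpl22-/-. It was 1.51-fold lower (log2 fold change -0.59, SE 0.17, adjusted p = 0.0402), and the call was lost without Rpl22+/+ replicate 1 or 3 or Rpl22-/- replicate 1 or 3. Gapdh, the most abundant of the 39 genes, went from 3772 ± 535 to 2786 ± 287 TPM (log2 fold change -0.50, SE 0.23, adjusted p = 0.162). Gpi1, Aldoa, Eno1 and Ldha had log2 fold changes from -0.72 to -0.44 and did not pass either, while Pgam1 (-0.02) and Pkm (0.12) lay near 0. The 26 genes that did not pass ranged from -0.83 for Aldoc to 1.15 for Pklr, the last at 0.08 to 1.28 CPM. With the replicate block 5 of the 26 passed, Aldoc (adjusted p = 0.0373), Tpi1 (0.0404), Pfkm, Mpc1 and Ldha. With a correction for GC content, 15 of the 39 genes passed as lower and 5 as higher, where 36% of all genes passed. The added lower genes were Gpi1, Pfkp, Aldoa, Aldoc, Gapdh, Eno1, Ldha and Tkt, with log2 fold changes from -0.81 to -0.32 in that fit, and Pdha1 was lost from them, while Pfkm was added to the higher genes and Slc16a1 lost. Without Rpl22+/+ replicate 2, where 40% of all genes passed, 10 were lower and 8 higher, and Gapdh, Aldoa, Eno1, Ldha, Gpi1 and Tkt did not pass, at -0.49 to -0.26.

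Enolase 1 could not be read from its own gene alone. Eno1 (chr4:150321178-150333336) has a near-identical copy, Eno1b (chr18:48178402-48181479), whose transcript differs from that of Eno1 at 9 of 1735 aligned bases, all between bases 1124 and 1749 of the Eno1 transcript, so that most reads fit both. Eno1 was at 609, 1039 and 665 CPM in Rpl22+/+ and 526, 626 and 492 in Rpl22-/- (log2 fold change -0.49, SE 0.24, adjusted p = 0.178), whereas Eno1b was at 359, 622 and 379 CPM against 986, 1199 and 971 (log2 fold change 1.21, SE 0.25, adjusted p = 0.013). The split between the copies did not overlap between genotypes: Eno1b took 37.1%, 37.4% and 36.3% of their reads in Rpl22+/+ and 65.2%, 65.7% and 66.4% in Rpl22-/-. The sum of both was 1225 ± 380 CPM in Rpl22+/+ and 1600 ± 197 in Rpl22-/-, or 0.39 on the log2 scale (SE 0.24, adjusted p = 0.299), so the sign for enolase 1 turns with the way the copies are counted and neither sum nor Eno1 passed. Eno1 lies 2076863 bases from Rpl22 on chromosome 4, and genes of that chromosome had a median log2 fold change of 0.43 over 734 genes. Whether sequence differences near Rpl22 between the genotypes move reads between the copies was not tested. Eno3 held at most 2.90% and Eno2 at most 0.13% of the TPM of Eno1, Eno2 and Eno3 in any library, and neither passed.

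**Figure D4:**
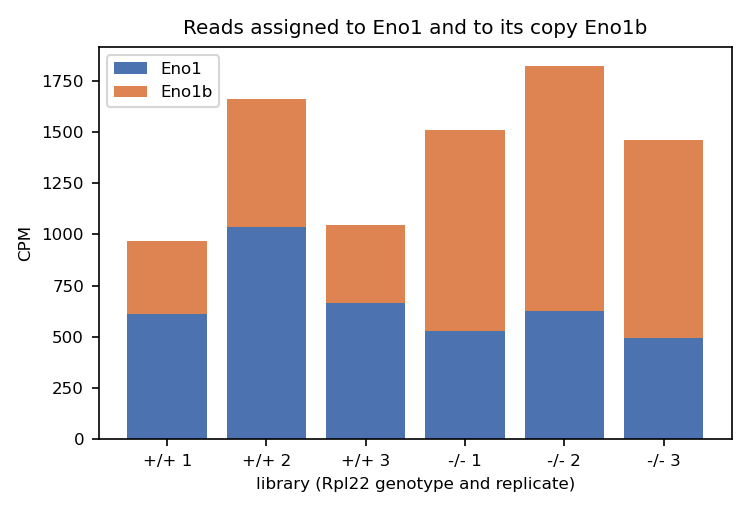
CPM of reads assigned to Eno1 (blue) and to its copy Eno1b (orange), stacked, in each library, named by Rpl22 genotype and replicate. The orange part is 36.3% to 37.4% of the bar in Rpl22+/+ and 65.2% to 66.4% in Rpl22-/-, while the whole bars overlap between genotypes.

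Pyruvate kinase, the last step, was nearly all Pkm, with Pklr at no more than 0.05% of their TPM in any library. The Pkm gene makes its M1 and M2 forms by choosing 1 of 2 neighboring exons of 167 bases each. Transcripts with the M1 exon made up 10.1%, 9.27% and 8.64% of M1 plus M2 in Rpl22+/+ and 8.75%, 8.26% and 8.51% in Rpl22-/-, so M2 predominated in all 6 libraries and the groups overlapped (exact two-sided permutation test, p = 0.2; edgeR transcript usage, adjusted p = 0.805). The limma test of transcript use over all tested Pkm transcripts did pass (adjusted p = 0.0182).

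Lactate dehydrogenase A, which reduces pyruvate to lactate, was at 460.4, 775 and 491 CPM in Rpl22+/+ and at 307, 408 and 331 CPM in Rpl22-/-. The groups did not overlap, but the fall of 0.72 on the log2 scale (SE 0.24) had an adjusted p of 0.0678 and passed in 9 of 19 alternatives, among them the replicate block (adjusted p = 0.0161). Ldhb, the form that favors the reverse reaction, was at 0.20, 0.65 and 0.68 CPM in Rpl22+/+ and 1.84, 2.24 and 2.02 CPM in Rpl22-/- (log2 fold change 1.99, SE 0.47, adjusted p = 0.0208). These values describe a small part of the gene: the matched transcripts of Ldhb gave a mean of 0.0595 of that in the deposited gene-level table, and those of Tpi1 0.0418, against 0.966 to 1.01 for the other 37 genes. The levels and shares of Ldhb and Tpi1 are therefore not those of the whole gene, and the Ldhb call was lost without any one of the Rpl22-/- libraries.

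Entry of pyruvate into the mitochondrion changed in parts. Mpc2 (chr1:165288206-165308783, plus strand), a subunit of the mitochondrial pyruvate carrier, was at 53.5, 68.8 and 53.7 CPM in Rpl22+/+ and 29.7, 34.9 and 31.1 in Rpl22-/-. It was 1.84-fold lower (log2 fold change -0.88, SE 0.15, adjusted p = 0.00711). Its partner Mpc1 was at 49.7 ± 12.2 CPM against 73.8 ± 10.2 (log2 fold change 0.57, SE 0.21, adjusted p = 0.0848, and 0.0180 with the replicate block), so the carrier's subunits differed in sign. Pdha1 (chrX:158905205-158921409, minus strand), the catalytic E1 alpha subunit of pyruvate dehydrogenase, was at 110, 139 and 112 CPM in Rpl22+/+ and 68.8, 85.2 and 76.8 in Rpl22-/-. It was 1.56-fold lower (log2 fold change -0.65, SE 0.16, adjusted p = 0.0229), and its partner Pdhb was at 69.6 ± 10.5 against 73.7 ± 8.57 CPM (log2 fold change 0.08, adjusted p = 0.761). The call of Pdha1 was lost with the GC correction (adjusted p = 0.054) and without Rpl22+/+ replicate 3 or Rpl22-/- replicate 1 or 3.

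Among the kinases that switch pyruvate dehydrogenase off, the share of Pdk1 was higher in Rpl22-/- and that of Pdk3 lower. Pdk1 (chr2:71703568-71734202, plus strand) was at 23.8, 30.5 and 22.0 CPM in Rpl22+/+ and 41.7, 45.3 and 39.6 in Rpl22-/-, 1.66-fold higher (log2 fold change 0.73, SE 0.16, adjusted p = 0.0176). The call was lost without Rpl22+/+ replicate 1 or 3 or Rpl22-/- replicate 1 or 3. Pdk3 was at 33.9, 45.4 and 33.0 CPM against 30.5, 32.2 and 30.3 (log2 fold change -0.27, SE 0.16, adjusted p = 0.265), and Pdk2 at 6.35, 10.3 and 6.99 CPM against 7.94, 8.72 and 8.42 (log2 fold change 0.09, SE 0.22, adjusted p = 0.816). In TPM, Pdk1 held 32.5 ± 0.38% of the kinases in Rpl22+/+ and 46.5 ± 0.45% in Rpl22-/-, Pdk3 56.1 ± 1.24% and 42.3 ± 0.14%, and Pdk2 11.4 ± 0.95% and 11.2 ± 0.51%. The shares of Pdk1 and of Pdk3 did not overlap between the groups, while those of Pdk2 did. Most Pdk1 TPM fell on transcripts annotated as non-coding: the only coding form held 18.3 ± 1.99% of Pdk1 TPM in Rpl22+/+ and 20.9 ± 1.02% in Rpl22-/-. Over protein-coding transcripts alone, Pdk1 made up 8.95%, 8.07% and 7.44% of the kinases in Rpl22+/+ and 16.4%, 15.5% and 15.1% in Rpl22-/-, and Pdk3 77.5%, 75.8% and 77.4% against 67.3%, 67.5% and 67.5%. Pdk3 thus led among coding transcripts in all 6 libraries, and the shares of both again did not overlap between genotypes. The coding share of Pdk2 did not overlap either, at 13.6%, 16.1% and 15.2% against 16.3%, 16.99% and 17.4%.

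In the pentose phosphate pathway, the entry enzyme fell. G6pdx (chrX:73453089-73472800, minus strand), the glucose 6-phosphate dehydrogenase that makes the first NADPH, was at 559, 856 and 604 CPM in Rpl22+/+ and 388, 419 and 367 in Rpl22-/-. It was 1.72-fold lower (log2 fold change -0.78, SE 0.20, adjusted p = 0.0266), a call lost without Rpl22+/+ replicate 3 or Rpl22-/- replicate 1 or 3. Pgd, the enzyme that makes the second NADPH, was at 969 ± 231 against 1193 ± 104 CPM (log2 fold change 0.30, SE 0.20, adjusted p = 0.333). Tkt and Taldo1, which shuttle carbons back to glycolysis, had log2 fold changes of -0.53 and -0.23 and did not pass. Of the 4 X-linked genes among the 39, 3 passed as lower (Pgk1, Pdha1 and G6pdx) and Pdk3 did not pass. Of 355 X-linked genes with a mean of 50 counts or more, 14.9% passed as lower, and their median log2 fold change was -0.03. Xist, the RNA of the inactive X chromosome, had at most 5 reads in any library, and Ddx3y on the Y chromosome had reads in all 6, at 194 in Rpl22+/+ replicate 2 and 2747 to 7184 in the others.

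Transcript use within genes was tested for the 31 of the 39 genes with at least 2 tested transcripts, and 3 passed (edgeR diffSpliceDGE, gene-level adjusted p under 0.05), against 2.56% of 10078 genes: Ldha (adjusted p = 2.32e-08), Pfkfb3 (0.000358) and Slc2a3 (0.0226). In Ldha and Slc2a3 the transcript that moved leaves out 1 internal coding exon and is annotated as a target of nonsense-mediated decay, the pathway that degrades messages with an early stop. The exons are shown because each is the only internal exon of the full-length transcript that the skipping one lacks. The first and last exons of these transcripts were not compared. Exon bases are in capitals, with 15 bases of each neighboring exon in lower case, 5′ to 3′ on the strand of the gene, from the transcripts of GENCODE vM21 with positions on GRCm38.
Ldha exon 6 of 8, chr7:46851877-46851994, plus strand: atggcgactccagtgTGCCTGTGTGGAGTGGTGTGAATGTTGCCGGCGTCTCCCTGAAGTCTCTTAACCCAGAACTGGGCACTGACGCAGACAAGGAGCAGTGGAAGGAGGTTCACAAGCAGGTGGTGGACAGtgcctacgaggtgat
Slc2a3 exon 3 of 10, chr6:122739833-122739993, minus strand: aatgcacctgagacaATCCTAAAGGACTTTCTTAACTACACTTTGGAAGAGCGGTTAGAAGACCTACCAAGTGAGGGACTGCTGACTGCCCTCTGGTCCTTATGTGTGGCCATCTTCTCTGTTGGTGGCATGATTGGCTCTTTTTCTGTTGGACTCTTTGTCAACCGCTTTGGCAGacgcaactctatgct
Skipping joins the neighboring exons, printed next with 15 bases of each.
Ldha, exon 5 to exon 7: atggcgactccagtgTGCCTACGAGGTGAT
Slc2a3, exon 2 to exon 4: aatgcacctgagacaACGCAACTCTATGCT
The skipped exons are 118 and 161 bases long, and neither length is a multiple of 3.

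Ldha-209, the transcript without exon 6, was assigned 247, 461 and 428 reads in the Rpl22+/+ libraries and 0 in each Rpl22-/- library. It was a small part of the gene, with 0.97%, 1.02% and 1.47% of Ldha TPM in Rpl22+/+. The full-length Ldha-202 held 96.1% to 98.0% of Ldha TPM in all 6 libraries. Slc2a3-203, the transcript without exon 3, had 464, 814 and 898 reads in Rpl22+/+ and 14, 36 and 65 in Rpl22-/-. Its share of Slc2a3 TPM was 4.29%, 5.92% and 7.60% in Rpl22+/+ and 0.74%, 0.91% and 1.67% in Rpl22-/-, so the skipping form fell further than the gene (relative log2 change -1.71, transcript-level adjusted p = 0.0186). For Pfkfb3, the transcript that passed was Pfkfb3-221, also annotated for nonsense-mediated decay, with 18, 46 and 120 reads in Rpl22+/+ and 0, 0 and 0 in Rpl22-/-. Pfkfb3-215, a protein-coding form, went from 13.3%, 11.9% and 11.5% of Pfkfb3 TPM to 4.24%, 6.13% and 7.87%, with no overlap but a transcript-level adjusted p of 1. The Pfkfb3 call was not made by the limma test of transcript use (adjusted p = 0.353), while those of Ldha (0.00145) and Slc2a3 (0.00514) were. It was lost as well where a mean of at least 50 counts was asked of a transcript (adjusted p = 1). The Slc2a3 call was lost without Rpl22+/+ replicate 1 (0.0517) or 3 (0.279) and without Rpl22-/- replicate 1 (0.161) or 2 (0.244), whereas that of Ldha was kept without any one library, at an adjusted p of 5.12e-06 or less. Reads are divided among transcripts by Salmon's estimate, and the error of that division is not in these tests.

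**Figure D5:**
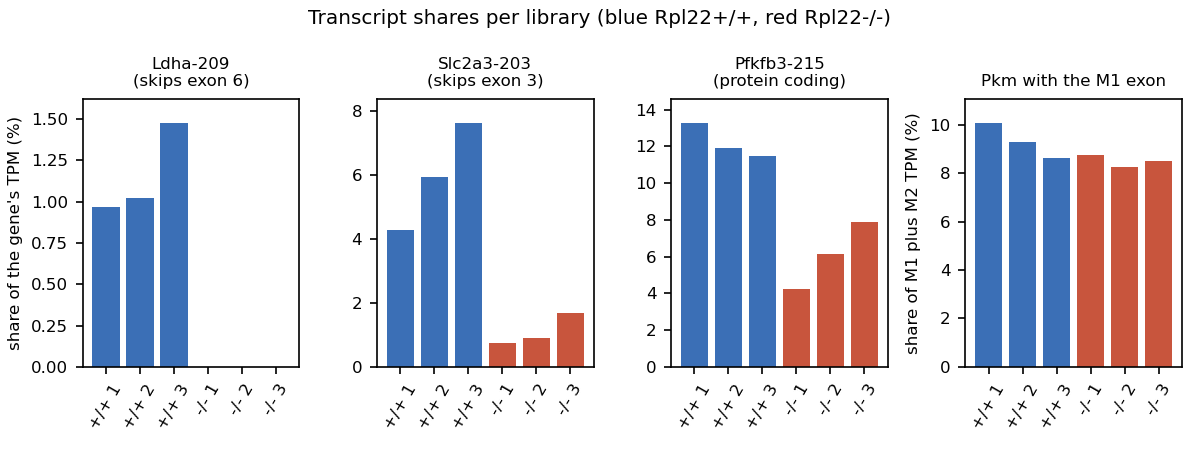
Share of each gene's TPM (y axis, percent) taken by Ldha-209, Slc2a3-203 and Pfkfb3-215, and share of the M1 form in Pkm M1 plus M2, in each library (blue Rpl22+/+, red Rpl22-/-; the y axes differ). Ldha-209 is absent from the red libraries, the blue bars of Slc2a3-203 and Pfkfb3-215 lie above all red ones, and the Pkm M1 bars stay between 8.26% and 10.1%.

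Other genes of these pathways changed in both directions. Of 45 further genes of glycolysis, pyruvate use and the pentose phosphate pathway, 33 were tested, of which 5 passed as higher and 8 as lower, beside 13.7% and 13.8% of all genes, with a median log2 fold change of 0.06. Those called with the smallest p were Ldhc, the lactate dehydrogenase of testis, at 0.84 to 1.26 CPM in Rpl22+/+ and 0 to 0.01 CPM in Rpl22-/-, Slc2a9, a urate and hexose transporter, at 14.1 ± 2.14 against 4.55 ± 0.45 CPM, and Slc16a7, a monocarboxylate transporter with high affinity for pyruvate, at 12.9 ± 2.55 against 4.63 ± 0.35 CPM. All 3 were lower in Rpl22-/-. Of these families within the 39 genes, only the monocarboxylate transporters passed in both directions (Slc16a1 higher, Slc16a3 lower). In the others, Slc2a3 passed as lower and Ldhb, read only in small part, as higher. Of 18 glycogen genes, 6 passed, where 27.6% of all genes did, and all 6 were lower, where 13.8% of all genes were, among them Pygl, the liver-type glycogen phosphorylase of leukocytes, at 1054 ± 135 against 439 ± 53.1 CPM (log2 fold change -1.27, SE 0.17, adjusted p = 0.00252). Ppp1r3d, which targets a phosphatase to glycogen, was at 40.0 ± 6.49 against 17.6 ± 0.55 CPM.

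Regulators of glycolytic genes moved in both directions as well, with 5 of 24 passing as higher and 6 as lower, beside 13.7% and 13.8% of all genes. Hif1a, the oxygen-regulated subunit of the hypoxia-inducible factor that activates many of these genes, was at 101.5, 72.5 and 104 CPM in Rpl22+/+ and 87.0, 87.5 and 88.9 in Rpl22-/- (log2 fold change -0.08, SE 0.17, adjusted p = 0.788). Myc, which also drives glycolytic genes, was at 30.3, 44.7 and 33.3 CPM against 130.3, 128 and 117 (log2 fold change 1.79, SE 0.18, adjusted p = 0.000804). Of 13 hypoxia-response genes from outside the pathway that were tested, 4 were higher and 3 lower, where 27.6% of all genes passed. Egln3, a prolyl hydroxylase that marks hypoxia-inducible factors for breakdown, was at 12.3 ± 2.25 against 54.9 ± 6.20 CPM (log2 fold change 2.15, adjusted p = 0.000429), Vegfa, an angiogenic factor, was at 68.7 ± 12.4 against 232 ± 50.4 CPM, and Ankrd37 at 3.13 ± 0.20 against 1.03 ± 0.25 CPM.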

How the data were processed

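Poly(A) RNA libraries were made with a stranded kit from CD11b+Gr1+ splenocytes of Rpl22+/+ and Rpl22-/- Mll-AF9 knock-in mice, with 3 libraries per genotype. Per the labels, reads were trimmed with Trimmomatic and assigned with Salmon, and GRCm39 is the named build. The authors deposited, for each library, an estimated count and a TPM for every transcript. They also deposited a gene-level table with a base mean, a normalized signal averaged over the libraries, which was used here to check the sums. The gene starts and ends in this table were used as well, for the gene positions on GRCm39. The log2 fold changes and p-values of this table are the authors' own comparison and were not used.

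Estimated counts were summed to genes by transcript ID with GENCODE vM21. Of 276623 transcripts listed, 49.2% matched, carrying 98.0% to 98.1% of the reads. Sums were rounded and tested with edgeR 4.0.16 in R 4.3.3 (filterByExpr, TMM factors, quasi-likelihood F test, Benjamini-Hochberg adjustment over all 16656 genes tested). A gene passed at an adjusted p under 0.05 and was called with an absolute log2 fold change over 1 as well. Transcript use was tested with diffSpliceDGE (Simes method), and shares of isoenzymes, in TPM, with a two-sided exact permutation test. Promoter motifs were searched on both strands. The edgeR gene test and diffSpliceDGE were also run on simulated counts, with dispersions taken from these data. The results of that run are not reported here. Alternatives included DESeq2 1.42.0, limma 3.58.1, other scalings and filters, a correction for GC content and leaving out each library.

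Genes were named by a fixed rule: values in every library are given for genes that passed with over 1.5-fold change and for the rest of their isoenzyme families, other members by range and count, and of each further list at most the 3 called genes with the smallest p. Rpl22, Hif1a and Myc are given whatever their values. Some genes of the further lists are not reported here. The members, the lists and the rule were chosen with earlier results of these data known. Libraries held 35828500 to 102866127 estimated reads, so that genes near 0 CPM rest on few reads, and errors cover the spread between libraries only.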

Additional observations from a re-analysis of the deposited data

How the results depend on the processing

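Of the 39 genes, 5 passed as higher and 8 as lower. The count of higher genes was 8 without a composition factor, 8 with log2(TPM + 1), 8 with log2(TPM + 0.1), 8 with a replicate block and 8 with the block and a GC correction, and 1 to 8 without 1 library (8 without Rpl22+/+ replicate 2, 3 without Rpl22-/- replicate 1, 1 without Rpl22-/- replicate 3 and 2 without any other). The count of lower genes was 15 with the GC correction, 16 with the block and the GC correction, and 5 to 10 without 1 library, with 5 where Rpl22+/+ replicate 3 or Rpl22-/- replicate 1 or 3 was left out. Without 1 library, genes called as higher numbered 1 (either Rpl22-/- replicate 2 or 3 left out) to 3, and the median log2 fold change ran from -0.34 without Rpl22+/+ replicate 3 to -0.024 without Rpl22+/+ replicate 2. The share of all genes that passed moved too, from 27.6% to 34.6% without a composition factor, 32.2% and 32.6% on the TPM scales, 33.8% with the block, 36% with the GC correction, 44.7% with both, and 15.1% to 40.0% without 1 library. The cause of these shifts was not tested, other than that fewer libraries were fitted where 1 was left out. The labels give both genotypes the same replicate numbers. Deviations of same-numbered libraries correlated at 0.570, 0.715 and 0.129 where the mean count was 50 or more and at 0.479, 0.634 and 0.0974 over all genes tested, and Rpl22+/+ replicate 3 correlated best with Rpl22-/- replicate 1 (0.430). Both sets of genes gave these correlations in the same order, lowest for replicate 3. Whether the numbers pair the libraries was not settled. The fit without the block was kept, with its blocked calls known.

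Genes near 0 changed sign. Slc2a1 was at -0.0082 with DESeq2 size factors, -0.011 with a mean of at least 50 counts, -0.0080 with the DESeq2 test and -0.13 to 0.21 without 1 library. Hk1 was at 0.018 with upper-quartile factors, 0.12 without a composition factor, 0.058 with log2(TPM + 1), 0.059 with log2(TPM + 0.1) and -0.15 to 0.14 without 1 library. Pdk2 was at -0.055 to 0.28 without 1 library, Pfkfb3 at 0.085 without a composition factor, and Eno1 at 0.39 with its copy added. In CPM in place of TPM, the change in share was -21.6 points for Slc16a3, -10.1 for Hk2, 14.1 for Hk3 and 15.7 for Pdk1, since CPM does not scale for transcript length. Over protein-coding transcripts alone, an alternative chosen after seeing the data, it was -11.8 for Slc2a3, -6.98 for Hk2, -27.9 for Pfkfb4 and 7.52 for Pdk1, each in the direction of the shares over all transcripts. Transcript use passed for 2 to 4 genes across alternatives, and with limma these were Ldha, Slc2a3, Pkm and G6pdx. The groups of 3 libraries were too small for a check for single outlying values.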
